A study of Mus musculus with 2 samples.

Results

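Potassium channel genes were selected on their total counts, as every column whose name starts with Kcn and that held at least 20 unique molecular identifiers (UMIs, each counting 1 captured transcript) summed over both tables. Of 94 such columns, 65 passed, out of 25120 genes in the tables and 15223 genes with at least 20 UMIs. The rule uses the counts themselves, so a total above 20 is not a finding. The members just inside were Kcnip4 with 28 UMIs, Kcnv1 with 27 and Kcnk9 with 26, and Kcnj6 and Kcnmb2 lay just outside with 19 each. The 65 include 63 protein-coding genes and 2 non-coding ones, Kcnq1ot1 and Kcnmb4os2.

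The study profiled single cells of the basolateral amygdala of adult C57BL/6 mice, sorted for tdTomato fluorescence and viability, in a project on cells that express KLB (beta-klotho, the co-receptor of the hormone FGF21). The treatments were vehicle and FGF21, given daily for 3 days, FGF21 at 1 mg/kg. Each treatment has 1 library made from tissue of 3 pooled mice, so differences between libraries have no replicate check and no p-value is given. The allele that drives tdTomato is not given in the sources used here.

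A potassium channel lets potassium ions leave or enter a cell down their electrochemical gradient and sets its resting potential. The Kcn genes encode several architectures: voltage-gated channels that open on depolarisation, inward rectifiers that pass current more easily inward, tandem-pore-domain channels that carry background leak, and channels opened by calcium or sodium, with auxiliary subunits that shape their gating. In glia, the inward rectifiers of astrocytes and the oligodendrocyte lineage are known for clearing potassium released by neurons, while in pericytes an ATP-sensitive channel couples energy state to membrane potential.

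There were 2925 barcodes and 11130580 UMIs in the vehicle library, against 2455 and 14585503 in the other. After filters, 2337 and 1935 cells were used, with a median of 4232 and 6838 UMIs. The libraries shared 12 barcode identifiers. Cells were clustered without any Kcn gene or channel partner among the genes used, and classes were named from fixed markers. Microglia-like cells numbered 1410 (vehicle) and 885 (FGF21), precursor-like cells (oligodendrocyte precursors) 379 and 587, astrocyte-like cells 99 and 192, and mural-like cells 181 and 40. All 8 markers of each list were detected in at least 10% of the cells of the clusters so named, and the mural-like cluster was led by pericyte genes such as Rgs5, Notch3 and Higd1b. Microglia-like cells fell into cluster 8, of which 98.3% were vehicle cells, and cluster 9, of which 2.16% were. Most precursor-like cells likewise lay in cluster 2 (87.5% vehicle cells) or cluster 3 (3.31%).

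Markers of other classes were found in each of the 4 main classes at a share of their level in all used cells. Free RNA can carry such markers, but the source of this share was not tested. The median share over 12 pairs of marker list and class was 29.1% for vehicle (range 19.9% to 54.2%) and 34.6% for FGF21 (22.5% to 58.6%). A gene with at least 20 UMIs in a class was called above background where this share accounted for at most 50% of its UMIs in each library, and only background where it accounted for more in each. It was said to mark the class where it was above background and its level in CPM (UMIs of the gene per 1000000 UMIs of the class) was at least 2-fold that of all other used cells in each library, with the 95% counting interval above 1. All intervals cover counting error only. CPM values compare 1 gene between classes, not genes with each other.

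By this rule 51 of the 65 genes, of which 57 were judged in at least 1 class, marked at least 1 of the 4 classes. The share of all genes that do so was not computed, so the 51 has no general rate beside it. Precursor-like cells had 37 marking genes, astrocyte-like cells 7, microglia-like cells 5 and mural-like cells 4. Of all genes judged, 16.4%, 8.91%, 9.32% and 11.6% marked these classes. The genes judged numbered 53 in precursor-like, 24 in astrocyte-like, 43 in microglia-like and 10 in mural-like cells. Because the minimum of 20 UMIs is reached more easily where a gene is high, the genes judged are not all 65. In precursor-like cells 47 were above background and 5 only background, where 84.9% and 10.7% of all genes judged were. In microglia-like cells 9 were above and 33 only background, against 69.5% and 20.7% of all genes. In astrocyte-like cells 11 were above and 5 only background (64.7% and 16.5% of all genes), and in mural-like cells 5 and 2 (69.7% and 11.0%). The remaining 1, 1, 8 and 3 genes fell on different sides in the 2 libraries in precursor-, microglia-, astrocyte- and mural-like cells. With a background profile taken from the barcodes left out of the cells, 14 genes were above background in microglia-like, 22 in astrocyte-like and 8 in mural-like cells. The 5, 37, 7 and 4 marking genes were the same under that profile.

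**Figure D1:**
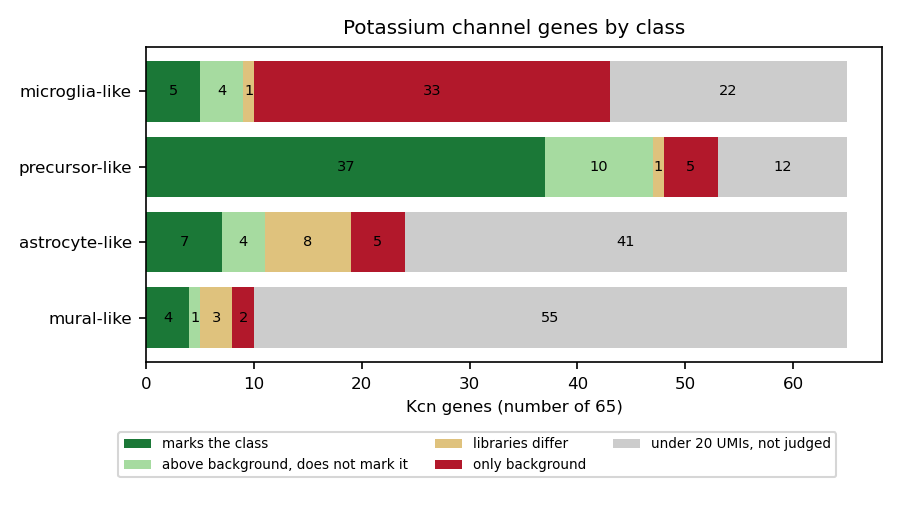
Number of the 65 Kcn genes (x axis) in each state in the 4 classes (y axis), with the numbers printed in the bars. Most genes judged in precursor-like cells marked that class (37), and most judged in microglia-like cells were only background (33).

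The summed level of the 63 protein-coding genes was highest in precursor-like and lowest in microglia-like cells of these 4 classes. It was 3301 CPM in vehicle and 3427 CPM in FGF21 precursor-like cells, 2281 and 2027 CPM in astrocyte-like cells, 2026 and 1959 CPM in mural-like cells, and 954 and 1037 CPM in microglia-like cells. After thinning every cell to 2000 UMIs, a precursor-like cell held a median of 5 Kcn genes in each library and a microglia-like cell 1 in vehicle and 2 in FGF21. Erythroid-like cells, red cell barcodes that should hold almost no channel RNA, had a summed level of 465 CPM from 44 UMIs in vehicle and 916 CPM from 38 UMIs in FGF21.

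RefSeq promoters (GRCm38.p6) were found for 48 of the 65 genes, 250 bases upstream of each listed start. They are shown for the 3 microglia-marking genes that have one, for Kcnj16, the chromosome neighbour of Kcnj2, and for the mural gene Kcnj8. Capitals mark GAGGAA on either strand, so TTCCTC is also marked. These letters are the core bound by PU.1, the transcription factor that defines the macrophage lineage.
Kcnk13: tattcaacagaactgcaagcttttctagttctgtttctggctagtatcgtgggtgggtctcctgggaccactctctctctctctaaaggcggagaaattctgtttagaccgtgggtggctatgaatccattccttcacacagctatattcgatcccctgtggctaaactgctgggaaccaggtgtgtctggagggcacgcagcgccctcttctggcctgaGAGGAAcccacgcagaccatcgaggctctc
Kcnj2: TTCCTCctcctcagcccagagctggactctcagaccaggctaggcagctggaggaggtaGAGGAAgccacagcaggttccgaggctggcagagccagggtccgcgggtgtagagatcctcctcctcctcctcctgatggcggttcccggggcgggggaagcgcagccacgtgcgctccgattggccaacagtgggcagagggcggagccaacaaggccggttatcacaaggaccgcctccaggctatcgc
Kcnk12: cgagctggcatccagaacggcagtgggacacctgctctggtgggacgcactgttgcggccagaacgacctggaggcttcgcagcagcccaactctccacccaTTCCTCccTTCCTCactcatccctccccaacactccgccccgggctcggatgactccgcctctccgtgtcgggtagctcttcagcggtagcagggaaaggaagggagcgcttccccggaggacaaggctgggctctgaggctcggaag
Kcnj16: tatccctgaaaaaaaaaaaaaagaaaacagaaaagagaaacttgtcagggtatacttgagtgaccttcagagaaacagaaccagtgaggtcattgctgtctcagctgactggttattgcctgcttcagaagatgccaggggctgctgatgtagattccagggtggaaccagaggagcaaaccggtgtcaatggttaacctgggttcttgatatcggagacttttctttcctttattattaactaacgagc
Kcnj8: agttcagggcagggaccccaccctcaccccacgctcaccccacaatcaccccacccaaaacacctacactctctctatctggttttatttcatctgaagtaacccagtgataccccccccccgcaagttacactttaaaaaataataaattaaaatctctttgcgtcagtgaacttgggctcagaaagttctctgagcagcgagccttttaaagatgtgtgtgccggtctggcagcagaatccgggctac

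The windows lie at chr12:99964249-99964498 on the plus strand for Kcnk13, chr11:111065914-111066163 on the plus strand for Kcnj2, chr17:87797995-87798244 on the minus strand for Kcnk12, chr11:110967783-110968032 on the plus strand for Kcnj16 (the first of 4 listed starts) and chr6:142571615-142571864 on the minus strand for Kcnj8. The Kcnk13 window lies within the span of its gene (99963149 to 100062682) and not before it. With that window counted, GAGGAA occurred in 3 of 3 microglia-marking genes with a promoter, against 25.85% of 27025 genes. It occurred in 9 of 28 precursor-marking, 1 of 5 astrocyte-marking and 2 of 4 mural-marking genes. None of the 4 Kcnj16 windows held it. Cores of 3 factors known in the other lineages were no more frequent in the matching genes or rested on 1 gene. The SOX core ACAAAG was in 4 of 28 precursor-marking genes (18.56% of all genes), the NFI site TTGGCA in 1 of 5 astrocyte-marking genes (14.12%) and the RBPJ core GTGGGAA in 0 of 4 mural-marking genes (6.176%). Such matches describe letters in these windows and do not show a factor's binding.

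Microglia-like cells were marked by 3 tandem-pore-domain genes, 1 voltage-gated gene and 1 inward rectifier. Kcnk6, a tandem-pore-domain channel also known as TWIK-2 and placed in macrophages upstream of the NLRP3 inflammasome, lies on chromosome 7 at 29221928 to 29232522. It had 2161 UMIs in vehicle cells (372 CPM, 95% interval 356 to 388) and 1450 in FGF21 cells (263 CPM, 249 to 277). All other used cells stood at 42.7 and 24.6 CPM, which made microglia-like cells 8.70-fold and 10.7-fold higher. Kcnk6 was also above background in the 53 and 23 border macrophage-like cells, without marking them. The other 64 Kcn genes had too few UMIs to be judged in that class. A Kcnk6 UMI was found in 67.6% and 68.7% of microglia-like cells (median depth 4177.5 and 6030 UMIs) and in 24.3% and 17.9% of precursor-like cells (6514 and 8931 UMIs). Thinned to 2000 UMIs, these shares were 48.0% and 36.7% against 8.27% and 4.29%. In precursor-like cells the UMIs predicted from the background share were 150% and 175% of the Kcnk6 UMIs found. Kcnk6 was therefore called only background there.

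Kcnk13, the channel called THIK-1 that sets microglial resting potential and process surveillance, had 302 UMIs in vehicle (52.0 CPM) and 283 in FGF21 microglia-like cells (51.3 CPM). These levels were 3.44-fold and 2.06-fold those of other cells. Its highest level was outside microglia, at 96.7 CPM (28 UMIs, 64.2 to 140) and 125 CPM (97 UMIs, 101 to 152) in oligodendrocyte-like cells, which it also marked. Kcnk12, its closest relative (THIK-2), was sparse, with 45 and 31 UMIs (7.74 and 5.62 CPM) and levels 4.11-fold and 3.44-fold those of other cells.

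Kcnj2 encodes the classical strong inward rectifier, the channel behind the inward current of microglia. It had 347 UMIs in vehicle (59.7 CPM, 53.6 to 66.3) and 177 in FGF21 microglia-like cells (32.1 CPM, 27.5 to 37.2), which were 7.50-fold and 6.87-fold above other cells. Kcnj16 ends 38196 bases before Kcnj2 begins on chromosome 11 and was only background in microglia-like cells, at 21.7 and 35.3 CPM, against 190 and 187 CPM in precursor-like and 238 and 213 CPM in astrocyte-like cells. The 2 neighbours thus marked different classes. Kcnd1, an A-type voltage-gated channel, was nearly level between libraries at 85.7 CPM (498 UMIs) and 87.1 CPM (481 UMIs), 2.99-fold and 2.23-fold above other cells.

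A further 4 genes were above background in microglia-like cells without marking them. These were Kcnq1ot1, a nuclear antisense RNA of an imprinted domain (82.1 and 89.5 CPM), Kcnab2, a beta subunit (5.68 and 10.1 CPM), Kcnj9, a subunit of G protein-gated rectifiers (7.57 and 4.71 CPM), and Kcnn4, a calcium-activated channel also known from lymphocytes (1.72 and 2.90 CPM). Kcnn4 rested on 10 and 16 UMIs here, and the 4 and 6 leukocyte-like cells held 2 and 4 UMIs (121 and 133 CPM). With a limit of 3-fold in place of 2-fold, Kcnk6, Kcnj2 and Kcnk12 remained as marking genes and Kcnk13 and Kcnd1 did not. Another rule, added after the values were seen, asked for at least 2-fold above each of the other 3 main classes. Under it Kcnk6, Kcnj2, Kcnk13 and Kcnd1 remained, Kcnk12 did not, and Kcnn4 passed.

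The 33 genes that were only background in microglia-like cells included some with many UMIs. Kcnip3 had 331 and 653 UMIs there, more than Kcnk13, and the UMIs predicted from the background share were 106% and 117% of them. Of the 14 voltage-gated genes of the Kcna to Kcnd groups, 2 were not judged in microglia-like cells. In that class 11 were only background (20.7% of all genes judged), and 1, Kcnd1, marked it (9.32%).

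**Figure D2:**
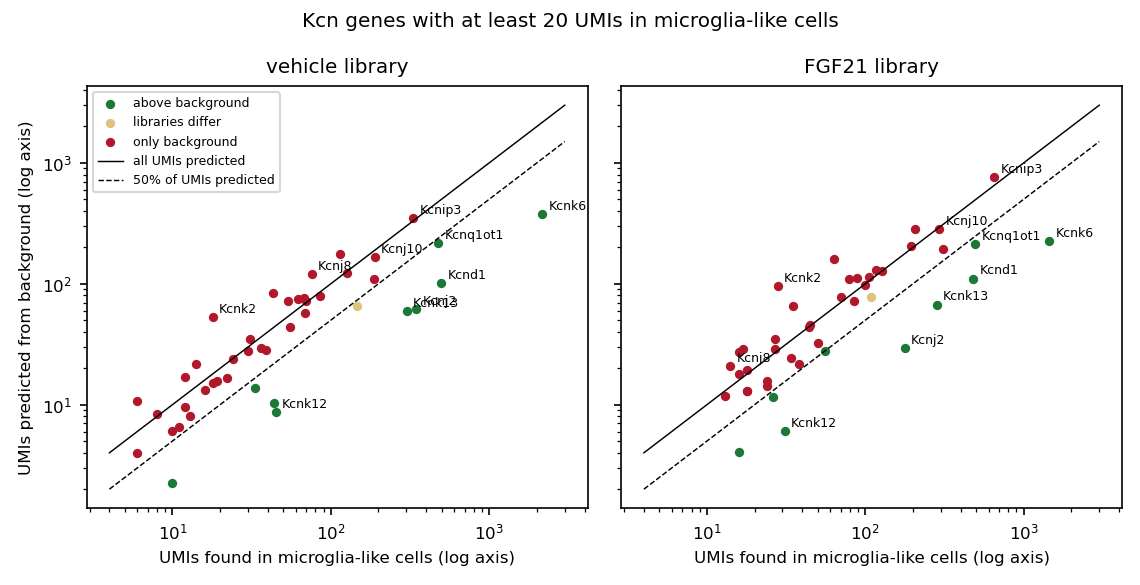
UMIs found in microglia-like cells (x axis, log scale) against UMIs predicted from the background share (y axis, log scale). Each point is 1 of the 43 Kcn genes judged, vehicle left and FGF21 right. The solid line is full and the dashed line 50% prediction. The 5 marking genes lie below the dashed line in each library, and Kcnip3 lies near the solid line.

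The genes that marked precursor-like cells included an A-type channel and its helpers. Kcnip3, a calcium-binding partner of Kv4 channels also called DREAM or calsenilin, was the Kcn gene with the most UMIs, 1732 in vehicle (688 CPM, 656 to 721) and 4471 in FGF21 precursor-like cells (856 CPM, 831 to 881). Other cells had 58.0 and 129 CPM, a ratio of 11.9 and 6.61. A Kcnip3 UMI was found in 92.6% and 97.1% of these cells, against 19.9% and 49.0% in the microglia-like class, or in 67.2% and 79.4% against 9.75% and 20.9% after thinning.

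The pore-forming Kv4 genes were among them. Kcnd2 had 889 and 1672 UMIs (353 and 320 CPM, 13.6-fold and 6.52-fold above other cells), and Kcnd3 had 373 and 662 (148 and 127 CPM, 12.7-fold and 7.06-fold). Dpp6 and Dpp10, membrane partners that speed Kv4 gating, marked the same class at 432 and 376 CPM and at 110 and 107 CPM. Kcnip1, another Kv4 partner, stood at 45.7 and 41.5 CPM. The third Kv4 pore gene, Kcnd1, was higher in microglia-like cells and reached 36.1 and 42.3 CPM here. Of the 9 channel partners with a column, 3 were not judged in precursor-like cells. There 4 were above background (84.9% of all genes judged), 1 was only background and 1 fell on different sides in the 2 libraries. The class was marked by 3 (16.4% of all genes judged), the last being Lrrc55, an auxiliary subunit of large-conductance channels.

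Inward rectifiers also marked these cells. Kcnj10, the potassium-buffering channel of glia, had 574 UMIs in vehicle (228 CPM) and 1218 in FGF21 precursor-like cells (233 CPM), 3.92-fold and 2.34-fold above other cells. Its partner subunit Kcnj16 had 479 and 975 UMIs (190 and 187 CPM). Kcnj10 was found in 247 of 379 vehicle and 478 of 587 FGF21 precursor-like cells, and Kcnj16 in 229 and 422. Both were found in the same cell in 154 and 359, at a median depth of 6514 and 8931 UMIs. Whether such overlaps exceed those of 2 unrelated genes was not tested. Kcnj10 was as high or higher in oligodendrocyte-like cells, at 318 and 314 CPM.

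Among the delayed rectifiers and leak channels, Kcna2 had 302 and 668 UMIs (120 and 128 CPM) and Kcnk3, the acid-sensitive leak channel TASK-1, had 303 and 672 (120 and 129 CPM). The library ratio of both had a counting interval that includes 1. All 14 voltage-gated genes of the Kcna to Kcnd groups were above background in precursor-like cells (84.9% of all genes judged) and 11 marked them (16.4%). Of 6 genes of the EAG (ether-a-go-go) family, 5 also marked them and Kcnh1 was not judged. Of the 4 main classes, Kcnh4, Kcnh5, Kcnh7, Kcnh8, Kcna4 and Kcna5 reached 20 UMIs only in this one. The counts of both families therefore follow in part from that minimum. Kcnh8, at 19.9 and 19.3 CPM, was 32.0-fold and 19.0-fold above other cells, and Kcnh2, at 20.6 and 22.6 CPM, 3.87-fold and 3.28-fold. The genes only background here were Kcnk6, Kcnk13, Kcnj8, Kcnj2 and Kcne4, all of which marked microglia-like or mural-like cells.

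Part of this list separates precursor-like cells from microglia more than from other glia. When a gene had to be at least 2-fold above each of the other 3 classes, a rule added after the values were seen, 22 of the 37 genes still marked precursor-like cells. That rule left out oligodendrocyte-like cells and a small cluster led by Enpp6 and Bmp4. Among the 22, Kcna6 also marked oligodendrocyte-like cells and Kcnj3 that cluster. Kcnj10, Kcnj16 and Kcna2 were not among the 22. Their astrocyte-like levels were 194 and 144 CPM for Kcnj10, 238 and 213 CPM for Kcnj16 and 209 and 197 CPM for Kcna2.

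**Figure D3:**
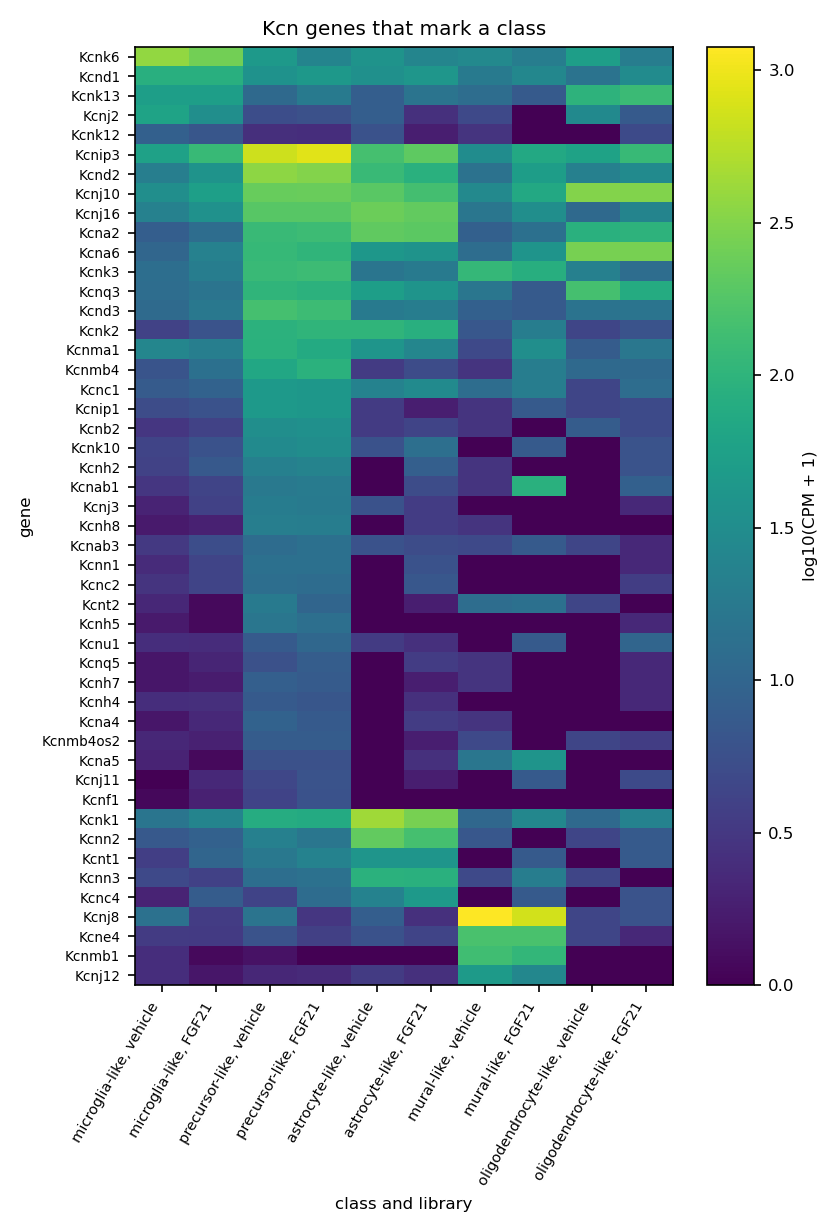
Level of 48 of the 51 marking genes (rows) on a log10(CPM + 1) colour scale in 5 classes of each library (columns). Rows are ordered by the first class they mark, from microglia-like to mural-like, and most rows are brightest in the precursor-like columns.

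Astrocyte-like cells were marked by 7 genes. Kcnk1, the tandem-pore-domain channel TWIK-1, which contributes to the passive conductance of astrocytes, lies on chromosome 8 at 125993655 to 126030685. It had 178 UMIs in 99 vehicle cells (437 CPM, 376 to 507) and 337 UMIs in 192 FGF21 cells (280 CPM, 250 to 311), 14.0-fold and 6.00-fold above other cells. A Kcnk1 UMI was found in 63.6% and 62.0% of astrocyte-like cells (median depth 4194 and 6115 UMIs) and in 5.74% and 13.6% of microglia-like cells. After thinning, the shares were 49.4% and 41.5% against 3.05% and 3.70%.

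The calcium-activated genes Kcnn2 and Kcnn3, which encode small-conductance channels, also marked astrocyte-like cells. Kcnn2 had 87 and 178 UMIs (214 and 148 CPM) and was 22.7-fold and 13.2-fold above other cells, the highest ratios of the 7. Kcnn3 had 37 and 106 UMIs (90.9 and 87.9 CPM), 13.8-fold and 11.9-fold above. The sodium-activated channel gene Kcnt1 had 16 and 47 UMIs (39.3 and 39.0 CPM), and Kcnc4, a fast voltage-gated channel, 9 and 54 (22.1 and 44.8 CPM). Kcnj16 and Kcna2 completed the list. With a limit of 3-fold, 4 of the 7 remained, and Kcnj16, Kcna2 and Kcnt1 did not.

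Kcnj10 was above background in astrocyte-like cells but did not mark them, with 79 UMIs in vehicle and 174 in FGF21 and levels 2.05-fold and 0.964-fold those of other cells. Kcnj10 was found in 41 of 99 and 96 of 192 astrocyte-like cells, Kcnj16 in 49 and 115, and both together in 23 and 67. The median depth was 4194 and 6115 UMIs. Of the 7 dystrophin complex genes, which anchor Kcnj10 channels at astrocyte endfeet, 6 were above background (64.7% of all genes judged). Of the 7, 3 marked the class (8.91% of all genes judged), among them Dtna at 555 and 573 CPM and Dmd at 182 and 157 CPM. In turn 5 of the same 7, Dmd among them, marked mural-like cells (11.6% of all genes judged). Kcnk6 (36.9 and 24.1 CPM) and Kcnd1 (34.4 and 39.8 CPM) were only background in astrocyte-like cells.

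Mural-like cells carried 4 marking genes, and 55 of the 65 had fewer than 20 UMIs in this class. Kcnj8, the pore of the vascular ATP-sensitive channel, on chromosome 6 at 142564837 to 142571614, had 621 UMIs in 181 vehicle cells (1189 CPM, 1098 to 1287) and 116 UMIs in 40 FGF21 cells (740 CPM, 611 to 888). Other cells stood at 13.4 and 2.73 CPM. A Kcnj8 UMI was found in 74.0% and 72.5% of mural-like cells (median depth 2776 and 3742 UMIs) and in 5.11% and 1.58% of microglia-like cells, or in 73.1% and 61.1% against 2.31% and 0.579% after thinning. Abcc9, the sulfonylurea receptor that pairs with Kcnj8 and lies 16248 bases away from it, had 1053 and 186 UMIs (2017 and 1187 CPM). Kcnj8 was found in 134 of 181 and 29 of 40 mural-like cells, Abcc9 in 154 and 30, and both in 128 and 25.

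The other 3 are a pore gene and 2 auxiliary genes. Kcne4, a single-span subunit that damps several voltage-gated channels, had 80 and 24 UMIs (153 CPM in each library). Kcnmb1, the beta subunit of the large-conductance calcium-activated channel of smooth muscle, had 70 and 17 UMIs (134 and 108 CPM), with 11 and 1 in all other used cells. Its gene lies within Kcnip1 on chromosome 11, and whether the authors counted by strand is not given in the sources used here. Kcnj12, an inward rectifier related to Kcnj2, had 24 and 4 UMIs. Kcnma1, the pore that Kcnmb1 modifies, had under 20 UMIs in mural-like cells and marked precursor-like cells instead, at 92.1 and 74.5 CPM. Kcnk3 was above background at 111 and 82.9 CPM, against 120 and 129 CPM in precursor-like cells. Kcnip3 (16 and 11 UMIs) and Kcnj10 (14 and 11) were only background.

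**Figure D4:**
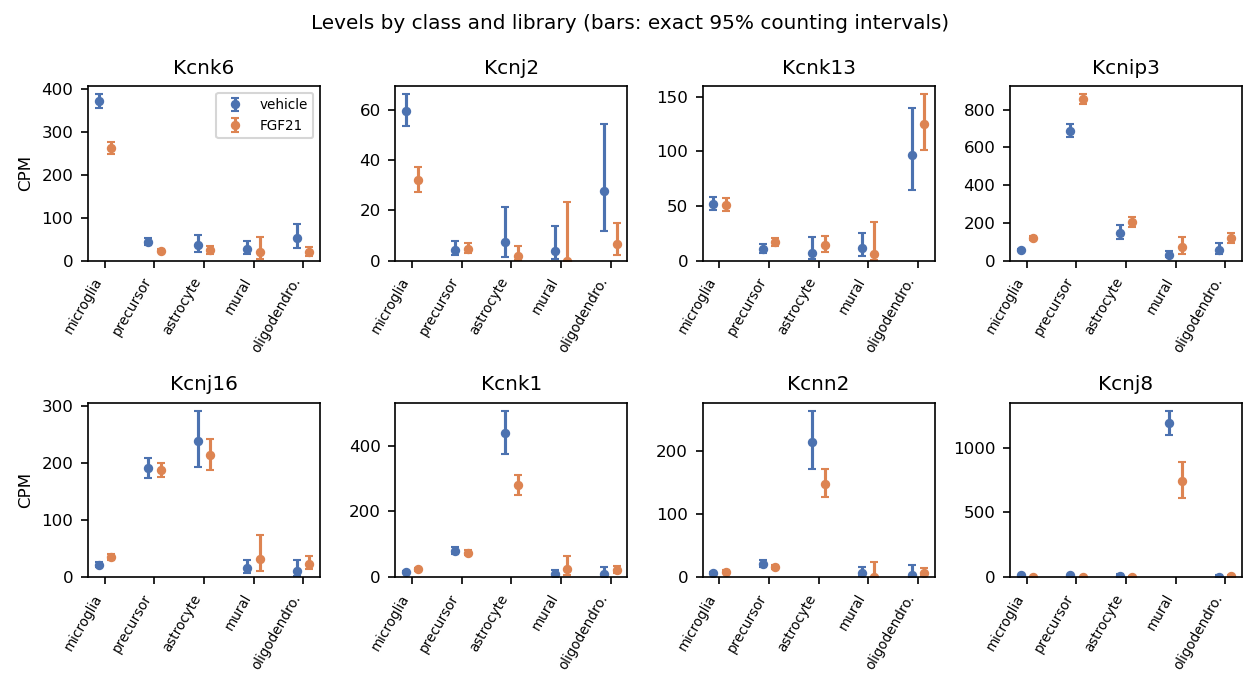
CPM (y axis, a separate scale per gene) of 8 Kcn genes in 5 classes (x axis), vehicle and FGF21 libraries side by side, with exact 95% counting intervals as bars. Kcnk6 and Kcnj2 are high in microglia-like, Kcnip3 in precursor-like, Kcnk1 and Kcnn2 in astrocyte-like and Kcnj8 in mural-like cells of each library, and Kcnk13 is highest in oligodendrocyte-like cells.

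Of the genes that marked 1 of the 4 main classes and had at least 50 UMIs there, Kcnc4 in astrocyte-like cells was the only one at least 2-fold apart between the libraries. The comparison covered Kcn genes with at least 50 UMIs in the class, which were 30 in microglia-like, 45 in precursor-like, 17 in astrocyte-like and 4 in mural-like cells. In microglia-like cells 4 genes passed 2-fold upward and 1 downward from vehicle to FGF21, where 4.18% and 1.22% of all genes did. The counts were 1 upward and 0 downward in precursor-like cells (1.44% and 0.94% of all genes), in astrocyte-like cells 2 and 0 (3.59% and 1.37%), and in mural-like cells 0 and 0 (2.54% and 4.95%). No p-value can be given with 1 library per treatment.

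Within microglia-like cells, Kcnk6 was 0.706 times its vehicle level in the FGF21 library (95% counting interval 0.660 to 0.755) and Kcnj2 0.537 times (0.445 to 0.645). Kcnd1 and Kcnk13 stood at 1.02 times (0.895 to 1.15) and 0.986 times (0.836 to 1.16). The libraries lay in different clusters, and the few cells in the other library's cluster gave other ratios. The 19 vehicle cells of cluster 9 had 267 CPM of Kcnk6 from 24 UMIs, against 264 CPM in its FGF21 cells. They had 189 CPM of Kcnj2 from 17 UMIs, against 32.2 CPM.

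The 5 Kcn genes at least 2-fold apart in microglia-like cells were all only background there. Kcnip3 was at 57.0 and 118 CPM (2.08 times, 1.82 to 2.38), Kcna6 at 9.29 and 21.2 CPM (2.28 times, 1.64 to 3.21), Kcnmb4 at 5.34 and 12.7 CPM (2.38 times, 1.54 to 3.75) and Kcnt1 at 2.75 and 9.06 CPM (3.29 times, 1.84 to 6.19). Kcnj8 went the other way, with 76 and 14 UMIs (13.1 and 2.54 CPM, 0.194 times, 0.101 to 0.346). Over the 30 genes the median log2 ratio was 0.59, and over all genes tested in microglia-like cells it was 0.03. Precursor-like cells were 16.2% of vehicle and 30.3% of FGF21 cells, and the summed precursor marker list in microglia-like cells stood at 777 and 1316 CPM. Mural-like cells were 7.75% and 2.07%, and the pericyte list in microglia-like cells stood at 638 and 182 CPM. The part of these shares in the ratios was not tested.

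Within precursor-like cells, Kcnip3 stood at 1.24 times its vehicle level (1.18 to 1.32). The 51 FGF21 cells in the mainly vehicle cluster 2 had 791 CPM, and the 18 vehicle cells in cluster 3 had 1009 CPM. Kcnd2, Kcnj10, Kcnj16, Kcnd3, Kcnk3 and Kcna2 lay between 0.856 and 1.07 times. Kcnq1ot1 was lower, at 261 and 151 CPM (0.580 times, 0.523 to 0.645), and so was the sodium-activated channel gene Kcnt2, with 44 and 47 UMIs from unequal totals (0.515 times, 0.334 to 0.795). The median log2 ratio over the 45 genes was 0.03, and over all genes tested -0.0041.

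Kcnc4 was the gene past 2-fold in precursor-like cells, with 8 UMIs in vehicle and 58 in FGF21 (3.18 and 11.1 CPM, 3.49 times, 1.66 to 8.48). It was also at least 2-fold higher in astrocyte-like cells, from 9 and 54 UMIs, with an interval that includes 1 (2.03 times, 0.992 to 4.67). In microglia-like cells it had 6 and 38 UMIs, from class totals of 5810455 and 5519513, too few for the comparison. It was only background there, so its higher count in the FGF21 library was not confined to precursor- and astrocyte-like cells. Over all barcodes it had 28 UMIs in vehicle and 166 in FGF21.

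Among astrocyte-marking genes, Kcnk1 was 0.639 times its vehicle level (0.531 to 0.771) and Kcnn2 0.691 times (0.531 to 0.903), while Kcnj16, Kcna2, Kcnn3 and Kcnt1 lay between 0.894 and 0.991 times. The median log2 ratio of the 17 genes was -0.16, against 0.02 for all genes tested. In mural-like cells Kcnj8 was 0.622 times its vehicle level (0.506 to 0.760) and Abcc9 0.588 times (0.501 to 0.688). Kcne4 stood at 0.999 times (0.605 to 1.59) and Kcnmb1 at 0.809 times (0.446 to 1.39). These rest on 40 FGF21 cells, of which 1 held 11.2% of the Kcnj8 UMIs.

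**Figure D5:**
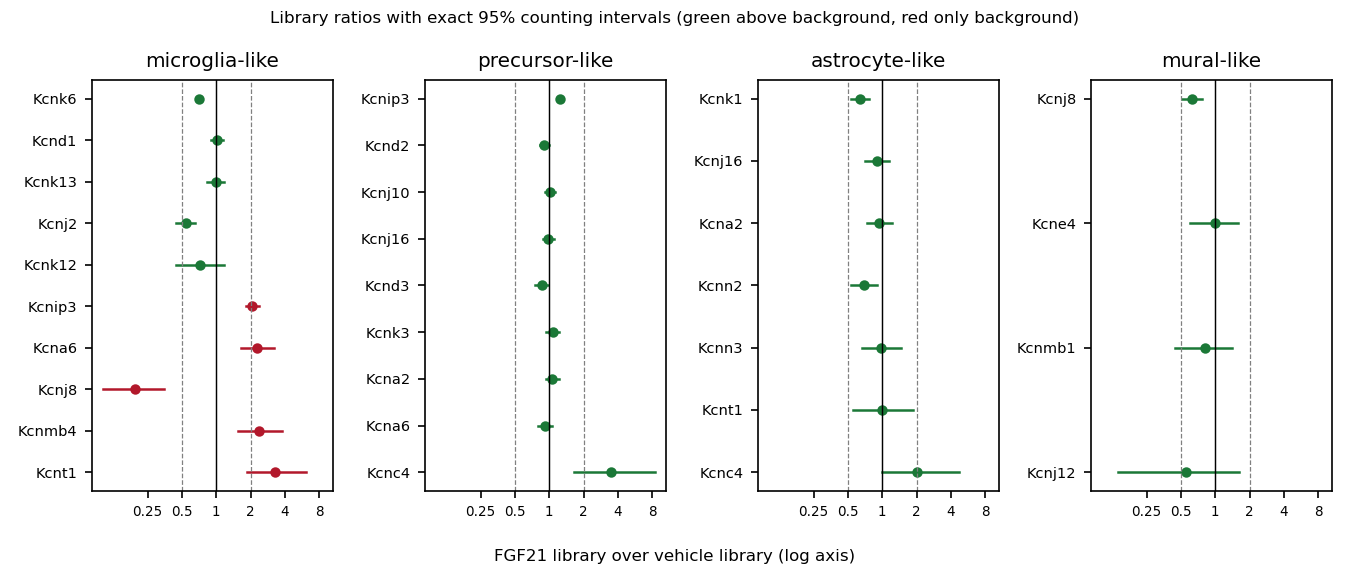
FGF21 over vehicle ratio (x axis, log scale) of the Kcn genes that mark each class, up to 8 per class, and of the named genes with at least 50 UMIs at least 2-fold apart, with exact 95% counting intervals as lines. Grey dashed lines stand at 0.5 and 2. The green points mostly lie between them, Kcnc4 lies beyond 2, and the red points in the microglia-like panel are the 5 genes that are only background there.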

How the data were processed

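Per the submitters' processing notes, the authors made whole UMI counts per cell and gene with the BD WTA Rhapsody Analysis Pipeline 1.9.1 on GRCm38; the deposited tables hold these counts. Whether counting used strand is not given in the sources used here. Kept barcodes had 500 or more UMIs, 300 or more genes and no more than 25% mitochondrial UMIs (1075 left out), and Scrublet removed 33 doublets (0.767%). Cells were clustered with scanpy 1.11.5 on 2000 variable genes without Kcn and partner genes (30 components, 15 neighbours, Leiden resolution 1.0). A cluster took the name of the marker list with the highest mean z, with a margin of 0.5 and at least 3 markers in 10% of cells. A cluster led by Enpp6 and Bmp4 stayed unnamed. Counts were summed per class and library and given as CPM with exact Poisson intervals; ratios have exact binomial intervals and shares Clopper-Pearson intervals. The scripts were tested on simulated data. Samples were grouped by the labelled treatment. Members and lists were chosen with earlier results of these data known. Named were up to 8 marking genes per class with the most UMIs, the 2 genes only background with the most UMIs per class, every gene at least 2-fold apart, genes of the partner lists and those beside the 20-UMI limit. Gene positions and promoters are from RefSeq (GRCm38.p6). Some genes that meet this rule are not reported here, though the counts include them.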

Additional observations from a re-analysis of the deposited data

Results flagged for a closer look

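Among the 29 Kcn columns under 20 UMIs, which enter none of the comparisons, 3 had more UMIs in the FGF21 table than in the vehicle table. For these the counting interval of the ratio (each scaled to its table's total) lay above 1. Genes higher in the vehicle table were not looked for, and the share of all genes that pass this limit was not computed. The totals cover all barcodes, so the different class shares of the libraries were not taken into account. Kcnmb2, a beta subunit of large-conductance channels, had 16 UMIs in the FGF21 table and 3 in the vehicle table. Kcns3, a silent voltage-gated subunit, had 9 and 0. Kcnd3os, an antisense transcript, had 8 UMIs in the FGF21 table and no column in the vehicle table, which was taken as 0.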

How the results depend on the processing

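Over 20 settings, 464 alternative values were computed. Of the counts, 193 stayed within 1.5 times and 23 did not. Of the ratios of named genes, 247 moved by less than their interval and 1 did not. Only ratios at least 2-fold apart in the main setting could be called reversed. Of these 0 were, which says nothing about the counts or the other ratios. Genes above background numbered 18 in astrocyte-like cells with the lower-quartile background share, and 14 in microglia-like, 22 in astrocyte-like and 8 in mural-like cells with the profile of the barcodes left out. Marking genes at 3-fold numbered 3 in microglia-like and 4 in astrocyte-like cells. At 2-fold above each other class, chosen after seeing the data, they numbered 22 in precursor-like and 4 in astrocyte-like cells. At 1.5-fold apart, 15 of the 30 genes compared were higher and 3 lower in FGF21 microglia-like cells. In precursor-like cells 4 were higher and 3 lower of 45. Of 17 genes in astrocyte-like cells 2 were lower, and of 4 in mural-like cells 1 was. How many of these genes were only background is not given here. At 20 UMIs for the ratio, 8 were higher in microglia-like cells, 1 lower in precursor-like cells and 3 higher in mural-like cells. In precursor-like cells 1 gene was lower at Leiden resolution 0.5, and also 1 with the Enpp6 and Bmp4 cluster counted as precursor-like, an alternative added after seeing the data. In astrocyte-like cells 1 gene was higher with a higher UMI minimum per cell and 1 with a lower mitochondrial limit. With the mean of single-cell CPM, 2 genes were higher in precursor-like cells and 1 lower in astrocyte-like cells, and Kcnk1 stood at 0.510 times. The share of all genes was not computed for these alternatives, so their counts have no general rate beside them. The causes were not tested. No paired analysis was possible because each treatment has 1 library. Counting error limits the classes with few UMIs, such as the mural-like cells of the FGF21 library with 156753.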

Other observations

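Classes outside the 4 main ones had Kcn genes of their own. Oligodendrocyte-like cells (41 vehicle and 82 FGF21 cells) were marked by Kcnj10, Kcna6, Kcna1 and Kcnk13. Kcna1, a voltage-gated channel known from the axon beside the node of Ranvier, stood at 183 CPM (53 UMIs) and 315 CPM (245 UMIs), and Kcna6, of the same group, at 276 and 280 CPM. The small cluster led by Enpp6 and Bmp4 (32 and 38 cells), genes of precursors that begin to differentiate, was marked by Kcna2 (160 and 166 CPM), Kcnq3 (155 and 144 CPM), Kcne4 (40.6 and 41.5 CPM) and Kcnj3 (25.4 and 19.3 CPM). Kcnip3, at 48.2 and 120 CPM there, was only background, while in precursor-like cells it was the Kcn gene with the most UMIs.

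Choroid plexus-like cells (28 and 16) were marked by Kcnj13, the inward rectifier of the choroid plexus, with 20 and 30 UMIs (2.06 times its vehicle level in FGF21, 1.13 to 3.83), by Kcne2, an auxiliary subunit of that epithelium, with 16 and 20, and by Kcnh2 with 15 and 7. Kcnj13 and Kcne2 were among the 8 Kcn genes judged in none of the 4 main classes, as were Kcnh1, Kcne1l, Kcnip4, Kcnv1 and Kcnk9. Neuron-like cells (13 and 21) were marked by Kcnq3, a subunit of the M-current channel, and by Kcnc1, among others. Kcnq3 had 15 and 19 UMIs (358 and 173 CPM). Kcnab1, a beta subunit, had 1 UMI in vehicle and 14 in FGF21 mural-like cells, and 1 cell held 64.3% of the 14.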
